A study of Mus musculus with 11 samples.

Results

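The vacuolar proton pump, or V-ATPase, was followed through 10 of its genes (Atp6v1a, Atp6v1b2, Atp6v1c1, Atp6v1d, Atp6v1e1, Atp6v1h, Atp6v0a1, Atp6v0c, Atp6v0d1 and Atp6ap1), taken by name from the 4338 genes of a ribosome footprint count table of mouse cortex. For each gene the transcript with the largest total over all libraries was used. The genes were taken by name as subunits of the pump and not by a threshold on their values. The 11 libraries came from wild-type C57BL6 mice aged 7 to 8 weeks and held footprints, the stretches of messenger RNA that ribosomes shield from nuclease, from ribosomes captured through the large-subunit protein P0. Of these, 4 libraries were ipsilateral (replicates 2, 4, 5 and 6), from the cortex on the side of a middle cerebral artery occlusion lasting 35 min and followed by 3 h of reperfusion. A further 4 were contralateral (replicates 1, 4, 5 and 6), from the opposite side after the same surgery, and 3 were sham (replicates 1, 2 and 5), from mice that were anaesthetised and had their arteries exposed with no filament inserted. The tissue label of the ipsilateral libraries also reads contralateral hemisphere, so the groups follow the sample titles. The hemisphere of the sham cortex is not stated.

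The V-ATPase is a rotary enzyme that spends ATP to pump protons into lysosomes, endosomes and secretory and synaptic vesicles. Its peripheral V1 sector binds and splits ATP, its membrane V0 sector carries the protons, and a central shaft couples the 2 sectors. In neurons the proton gradient it builds loads neurotransmitter into synaptic vesicles, and in lysosomes it gives the acid pH that hydrolases need. The pump is also known to switch off by releasing V1 from V0, a change that protein assembly, and not footprints, would record.

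Atp6v1a, Atp6v0c and Atp6v0a1 carry sequence features that bear on what the counts can show. Atp6v1a encodes the catalytic A subunit of V1. Among the coding sequences of the 10 representative transcripts it was the only one that held codons for a phosphate-binding loop of the form glycine, 4 residues of any kind, glycine, lysine, and serine or threonine, the loop that grips ATP. Coding bases 718 to 801 of Atp6v1a (chromosome 16, coding strand, GENCODE transcripts on mm10) are shown with the loop codons, bases 748 to 771, in capitals.
Atp6v1a: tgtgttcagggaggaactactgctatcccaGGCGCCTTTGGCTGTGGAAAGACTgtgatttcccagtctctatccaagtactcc
Atp6v0c encodes the proteolipid c subunit, whose copies form the proton-carrying ring of V0. Its coding sequence of 465 bases (chromosome 17) is 99.8% identical to the pseudogene Atp6v0c-ps2. The stretch from coding base 51 to 171 is shown because it holds the 1 base at which they differ, in capitals.
Atp6v0c: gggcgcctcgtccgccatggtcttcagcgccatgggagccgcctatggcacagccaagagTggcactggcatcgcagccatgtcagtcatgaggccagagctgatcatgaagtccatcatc
Of the 28-base words of this coding sequence, 93.6% also occur in transcripts of another gene, so the Atp6v0c counts below are uncertain wherever reads of the copies were assigned to it. The same share was 7.51% for Atp6v1a, through Gm18990, 0.881% for Atp6ap1, 0.0804% for Atp6v0a1 and 0 for the other 6 genes.

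Atp6v0a1 encodes the a1 isoform of the V0 subunit that holds the proton half-channels, the isoform known from nerve terminals. Its annotated transcripts differ by short coding segments, printed here with 20 bases on each side and with the segment in capitals (chromosome 11, plus strand, mm10), because they decide whether footprints can tell the isoforms apart. Transcript 201 carries 18 bases at chr11:101049459-101049476, transcript 210 carries another 18 at chr11:101054831-101054848, and transcript 202 joins the flanks directly.
Atp6v0a1-201: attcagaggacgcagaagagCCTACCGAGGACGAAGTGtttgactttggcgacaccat
Atp6v0a1-210: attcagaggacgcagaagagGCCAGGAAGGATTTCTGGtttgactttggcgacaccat
Atp6v0a1-202: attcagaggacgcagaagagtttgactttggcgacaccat
Transcript 203 adds 21 bases earlier in the coding sequence, at chr11:101026660-101026680, again absent from transcript 202.
Atp6v0a1-203: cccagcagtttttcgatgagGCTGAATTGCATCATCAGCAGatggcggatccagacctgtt
Atp6v0a1-202: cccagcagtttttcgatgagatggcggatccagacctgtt
Transcripts 202, 203 and 210 had the same count in every library. Transcript 201 matched them in 10 of 11 libraries and exceeded them by 11 counts in contralateral replicate 5, with 297 against 286. The deposited counts therefore did not separate the isoforms of Atp6v0a1.

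Library totals ran from 35068 to 137341 counts in the ipsilateral group, from 137372 to 571351 in the contralateral group and from 64460 to 256657 in the sham group, so every ipsilateral library was shallower than every contralateral one. All 10 genes passed the filter on low counts and were among the 3835 genes tested. Their counts per library ran from 6 to 814, and 2 of the 110 values were under 10, both in ipsilateral replicate 4. Levels are given as CPM, the count scaled to a common library size, and differences as log2 fold changes from edgeR's quasi-likelihood test with Benjamini-Hochberg adjustment over all 3835 genes. Libraries of total RNA were not analysed here, and so the amount of a transcript and its translation cannot be told apart, and in bulk cortex fewer cells of a type and less RNA per cell cannot be told apart either.

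No V-ATPase gene changed in any of the 3 comparisons. In ipsilateral against sham cortex 0 of 10 passed an adjusted p of 0.05, where 0.104% of all tested genes did. Between ipsilateral and contralateral cortex 0 of 10 passed, where 0.365% did, and between contralateral and sham cortex 0 of 10 passed, where 0% did. At an unadjusted p under 0.05 the count was also 0 of 10 in each comparison, against 7.74%, 7.61% and 5.66% of all genes in the same order. DESeq2 and limma-voom each called 0 of the 10 as well. The log2 changes were small: -0.26 to 0.06 in ipsilateral against sham cortex, -0.35 to 0.14 in ipsilateral against contralateral cortex and -0.19 to 0.23 in contralateral against sham cortex. The 95% intervals bound what the depth could show, reaching from 0.616-fold to 1.38-fold in the first comparison, from 0.590-fold to 1.43-fold in the second and from 0.680-fold to 1.51-fold in the third. The comparisons share libraries, so their values are set side by side and are not independent of each other.

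**Figure D1:**
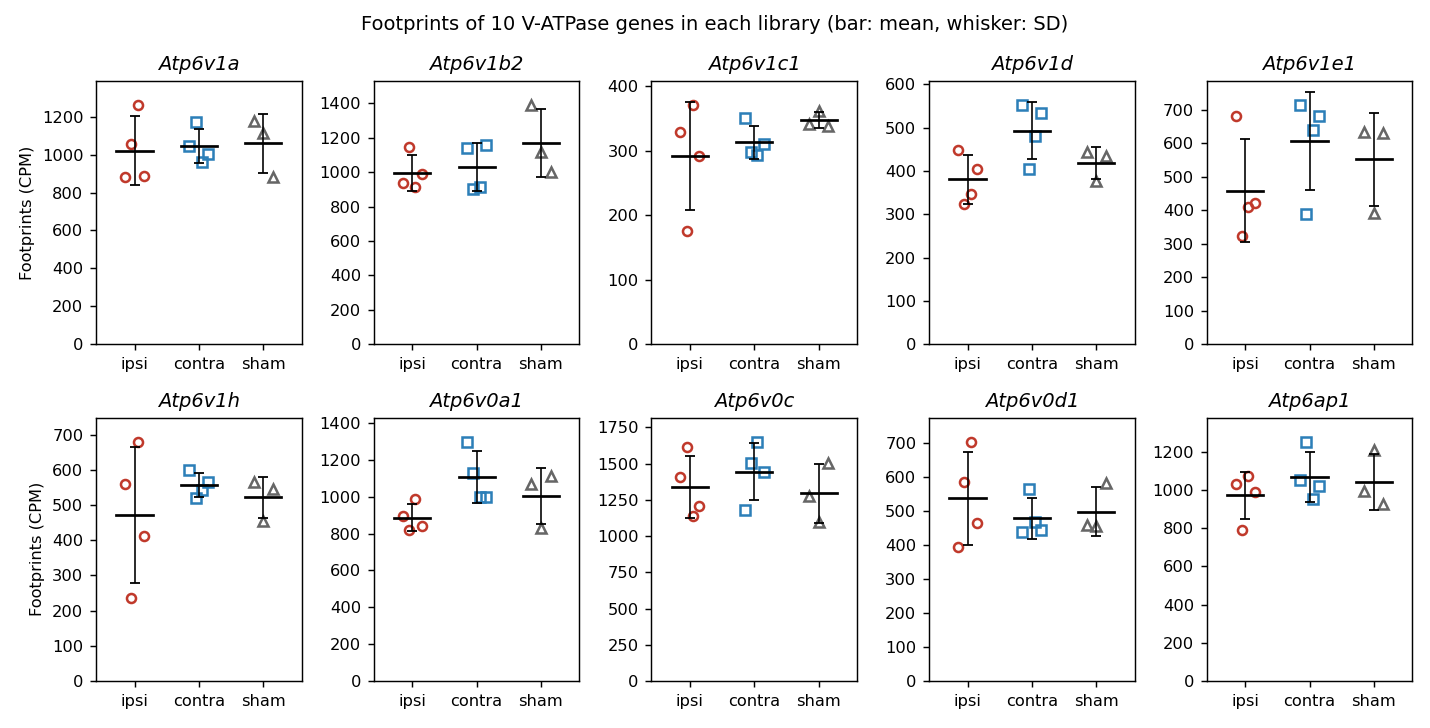
Footprint level of each V-ATPase gene in CPM on the vertical axis, 1 point per library, for the ipsilateral (ipsi), contralateral (contra) and sham groups, with the group mean as a bar and the SD as a whisker. The groups overlap in every panel except for ipsilateral against contralateral libraries of Atp6v0a1, where the 4 ipsilateral points, 821 to 989.6 CPM, lie below the 4 contralateral ones, 998 to 1300.2 CPM.

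In the catalytic head of V1, the A and B subunits alternate around the ring that splits ATP. Atp6v1a had 882, 1056, 1262 and 886 CPM in ipsilateral replicates 2, 4, 5 and 6, against 1044, 1170.2, 959 and 1005 CPM in contralateral replicates 1, 4, 5 and 6 and 1178, 1115 and 884 CPM in sham replicates 1, 2 and 5. Ipsilateral replicate 5 was the highest of the 11 libraries and ipsilateral replicate 2 the lowest, so the groups overlapped fully. The log2 change was -0.06 (SE 0.17) against sham and -0.04 (SE 0.15) against contralateral cortex, with a 95% interval of -0.40 to 0.28 against sham. Atp6v1b2, the B2 isoform that is the main non-catalytic B subunit of brain, had 934, 1144, 915 and 989 CPM in ipsilateral replicates 2, 4, 5 and 6, against 1138, 902, 915 and 1156 CPM in the contralateral libraries and 1389.9, 1115 and 1001 CPM in the sham libraries. Of the 4 ipsilateral values, 3 lay below all 3 sham values, and sham replicate 1 was the highest library. Its log2 change against sham was -0.26 (SE 0.17, edgeR adjusted p = 0.758), the lowest of the 10 genes in that comparison, and against contralateral cortex it was -0.07 (SE 0.15). The ratio of A to B2 footprints per kb of coding sequence was 0.857 ± 0.190 in ipsilateral libraries (SD, n = 4), 0.855 ± 0.159 in contralateral libraries (SD, n = 4) and 0.754 ± 0.0660 in sham libraries (SD, n = 3), ranges that overlapped.

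The stalks of V1 join the head to the membrane sector. Atp6v1d, the D subunit of the central shaft, had 448, 323, 346 and 404 CPM in ipsilateral replicates 2, 4, 5 and 6, against 552, 405, 481 and 535 CPM in the contralateral libraries and 444, 377 and 434 CPM in the sham libraries. Ipsilateral replicate 2 exceeded contralateral replicate 4, and the other 3 ipsilateral libraries lay below every contralateral one. The log2 change against contralateral cortex was -0.34 (SE 0.18, edgeR adjusted p = 0.680), while against sham it was -0.12 (SE 0.20). Between ipsilateral and contralateral replicates of equal number, which share a day of surgery, the log2 difference was -0.32 for number 4, -0.46 for number 5 and -0.39 for number 6, lower on the ipsilateral side in all 3 pairs. How many of all tested genes were lower in all 3 pairs was not counted, here or for Atp6v1e1 and Atp6v0a1 below. Atp6v1d was also the highest of the 10 genes in contralateral against sham cortex, at a log2 change of 0.23 (SE 0.18).

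Atp6v1e1, the E subunit of the peripheral stalks, had 680.0, 323, 408 and 422 CPM in ipsilateral replicates 2, 4, 5 and 6, against 714, 390.1, 639 and 682 CPM in the contralateral libraries and 632, 393 and 630.1 CPM in the sham libraries. The values fell into a lower and a higher set in every group, so the groups overlapped although 3 of 4 ipsilateral libraries were in the lower set. The log2 change was -0.35 (SE 0.20, edgeR adjusted p = 0.718) against contralateral cortex and -0.25 (SE 0.22, adjusted p = 0.859) against sham. In the pairs of equal number the ipsilateral replicate was lower than the contralateral one in all 3, with log2 differences of -0.27, -0.63 and -0.68 for numbers 4, 5 and 6. The estimate leaned on 1 library: without ipsilateral replicate 2 it was -0.65 (SE 0.22, adjusted p = 0.285) against contralateral cortex, still short of the threshold.

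Atp6v1c1, the C subunit that clamps the stalks and leaves when V1 detaches, had 329, 176, 371 and 293 CPM in ipsilateral replicates 2, 4, 5 and 6, against 350.3, 298, 293 and 311 CPM in the contralateral libraries and 342, 361 and 339 CPM in the sham libraries. The low value in ipsilateral replicate 4 rested on 6 counts, and ipsilateral replicate 5 was the highest of all 11 libraries. Atp6v1h, the H subunit that keeps detached V1 from wasting ATP, had 560.5, 235, 680.4 and 413 CPM in ipsilateral replicates 2, 4, 5 and 6, against 599.6, 520.1, 542 and 567 CPM in the contralateral libraries and 565, 456 and 545 CPM in the sham libraries. Again ipsilateral replicate 4, with 8 counts, was the lowest library and ipsilateral replicate 5 the highest. The SD over ipsilateral libraries was 83.8 CPM for Atp6v1c1 and 192 CPM for Atp6v1h, against 25.97 and 34.2 CPM over contralateral libraries and 12.2 and 58.5 CPM over sham libraries. The log2 changes were -0.17 (SE 0.22) and -0.09 (SE 0.21) against sham for Atp6v1c1 and Atp6v1h, and -0.02 (SE 0.20) and -0.16 (SE 0.19) against contralateral cortex.

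In the membrane sector, Atp6v0a1 had the lowest unadjusted p of the 10 genes in any comparison. It had 897, 821, 989.6 and 843 CPM in ipsilateral replicates 2, 4, 5 and 6, against 1300.2, 1132, 999 and 998 CPM in contralateral replicates 1, 4, 5 and 6 and 1072, 832 and 1112 CPM in sham replicates 1, 2 and 5. All 4 ipsilateral libraries lay below all 4 contralateral ones, with ipsilateral replicate 5 just under contralateral replicates 5 and 6, whereas sham replicate 2 fell inside the ipsilateral range. Such a gap downwards was seen in 1 of the 10 genes and in 2.06% of all tested genes. The mean was 888 ± 75.0 CPM in ipsilateral cortex and 1107 ± 143 CPM in contralateral cortex (SD, n = 4 each), a log2 change of -0.30 (SE 0.15, edgeR unadjusted p = 0.0502, adjusted p = 0.656) that did not pass the test. Against sham, at 1005 ± 151 CPM (SD, n = 3), the log2 change was -0.19 (SE 0.16, adjusted p = 0.840). Between libraries of the same day of surgery the log2 difference of ipsilateral from contralateral cortex was -0.46 between the replicates numbered 4, -0.01 between those numbered 5 and -0.24 between those numbered 6.

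Atp6v0c had 1405, 1613, 1138 and 1204 CPM in ipsilateral replicates 2, 4, 5 and 6, against 1179, 1507, 1652 and 1446 CPM in the contralateral libraries and 1280, 1099 and 1504 CPM in the sham libraries. The groups overlapped, and the log2 change was 0.02 (SE 0.16) against sham and -0.13 (SE 0.15) against contralateral cortex. Atp6v0d1, the d subunit that seats the central shaft on the c ring, had 396, 587, 705 and 465 CPM in ipsilateral replicates 2, 4, 5 and 6, against 438, 566, 468 and 444 CPM in the contralateral libraries and 459, 456 and 582 CPM in the sham libraries. It was the only 1 of the 10 genes with a positive log2 change against both contralateral cortex, at 0.14 (SE 0.18), and sham, at 0.06 (SE 0.20), and its ipsilateral libraries held both the lowest and the highest of the 11 values. Atp6ap1, the accessory protein Ac45 that takes part in V0 assembly, had 1031, 792, 1076 and 989 CPM in ipsilateral replicates 2, 4, 5 and 6, against 1051, 1254, 952 and 1023 CPM in the contralateral libraries and 997, 1209 and 927 CPM in the sham libraries. Only ipsilateral replicate 4 lay outside the range of the other groups, and the log2 change was -0.06 (SE 0.16) against sham and -0.11 (SE 0.15) against contralateral cortex.

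**Figure D2:**
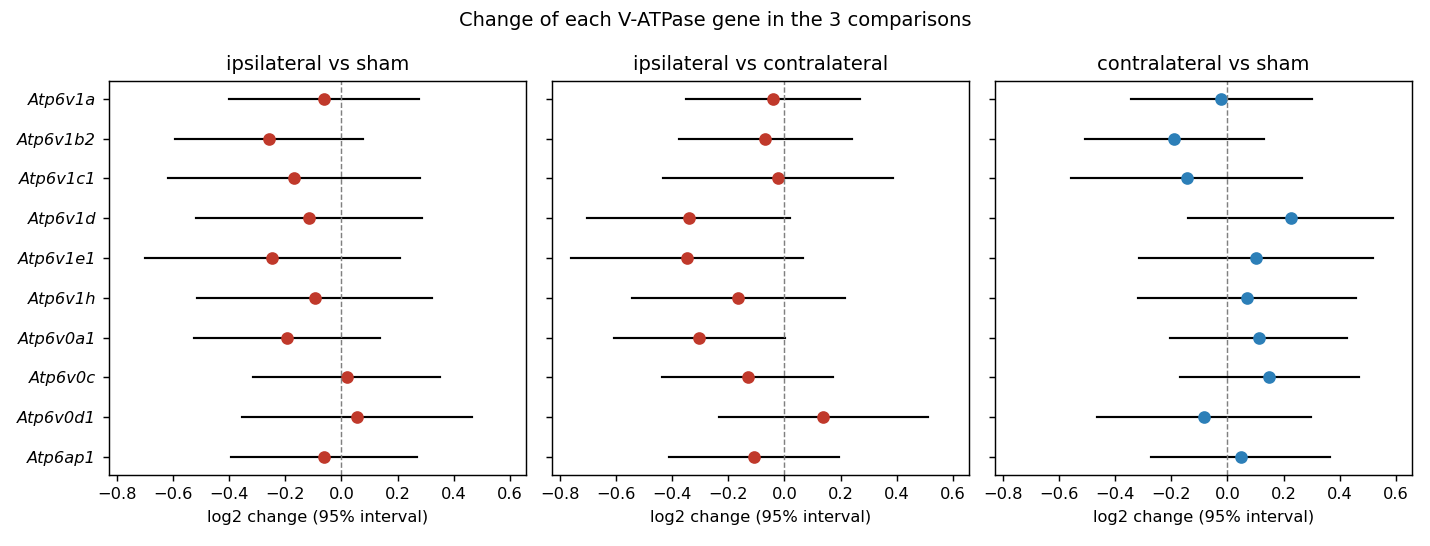
Log2 change of each V-ATPase gene (points) with its 95% interval (lines) in ipsilateral against sham, ipsilateral against contralateral and contralateral against sham cortex, from edgeR's quasi-likelihood fit. Every interval crosses 0, that of Atp6v0a1 in ipsilateral against contralateral cortex by the least, from -0.61 to 0.00028.

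Read as a set, most point estimates were on the low side in ipsilateral cortex. Of the 10 genes, 8 had a log2 change below 0 against sham, where 50.1% of all tested genes did, and 9 against contralateral cortex, where 48.6% did. The median log2 change of the 10 genes was -0.11 against sham, with -0.0011 over all tested genes, and -0.12 against contralateral cortex, with 0.01 over all tested genes. In contralateral against sham cortex 4 of 10 were below 0, where 50.7% of all genes were, and the median was 0.06, with -0.0040 over all genes. These counts and medians describe the 10 genes and carry no test, since the genes were listed with earlier results of these data known. Between replicates of equal number, which share a day of surgery, the count was less even. In ipsilateral against contralateral cortex 7 of 10 were below 0 for number 4, 4 of 10 for number 5 and 9 of 10 for number 6, while against sham it was 5 of 10 for number 2 and 5 of 10 for number 5.

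Summed over the 10 genes, the pump took 0.737%, 0.687%, 0.762% and 0.652% of the library total, as defined above, in ipsilateral replicates 2, 4, 5 and 6, against 0.835%, 0.775%, 0.768% and 0.805% in contralateral replicates 1, 4, 5 and 6 and 0.830%, 0.732% and 0.771% in sham replicates 1, 2 and 5. All 4 ipsilateral shares lay below all 4 contralateral ones, ipsilateral replicate 5 by the least, and they overlapped the sham shares. The shallowest library, ipsilateral replicate 4, had 241 of 35068 counts in these genes, a 95% Wilson interval of 0.606% to 0.779%, and its interval overlapped those of contralateral replicates 4 and 5. Ipsilateral replicate 6 had an interval of 0.608% to 0.698%, below those of all contralateral libraries, and each of the 10 genes was below its own mean over the 11 libraries there. The intervals of ipsilateral replicates 2 and 5, 0.693% to 0.783% and 0.705% to 0.823%, overlapped contralateral ones. As summed CPM, the highest ipsilateral library had 7892 and the lowest contralateral library 7900. Reads were not marked by molecular identifiers, so these intervals cover counting error only. The ipsilateral libraries with the lower shares were also the shallower group, and the part of depth in the shares was not tested. Without the 2 shallowest libraries, ipsilateral replicate 4 and sham replicate 2, the median log2 change of the 10 genes was -0.11 against contralateral cortex and -0.09 against sham.

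**Figure D3:**
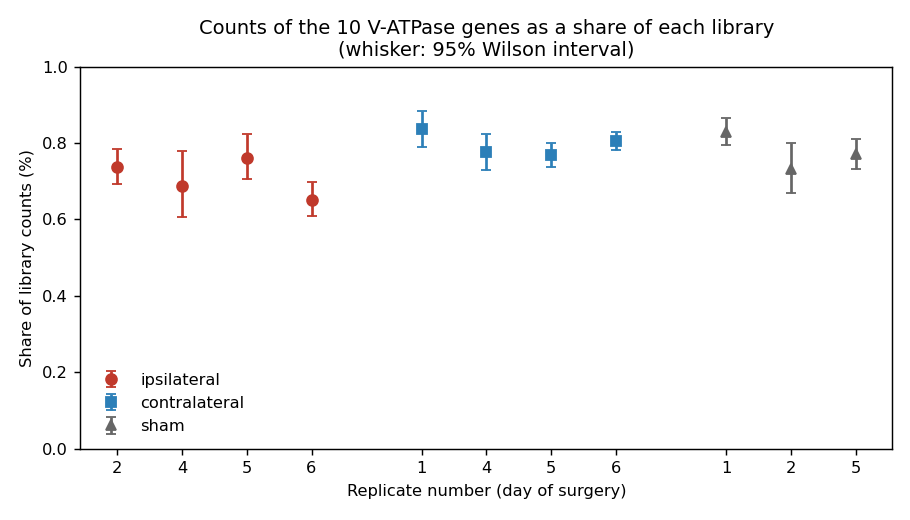
Share of the library total (summed over 1 transcript per gene) that fell on the 10 V-ATPase genes, in percent, for each library by replicate number (day of surgery), with 95% Wilson intervals as whiskers. The ipsilateral shares run from 0.652% to 0.762%, the contralateral shares from 0.768% to 0.835% and the sham shares from 0.732% to 0.830%.

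Levels between subunits were compared as footprint density, CPM per kb of coding sequence. Atp6v0c was the densest of the 10 genes in each of the 11 libraries, at 2882 ± 461 CPM per kb in ipsilateral cortex (SD, n = 4), 3109 ± 426 in contralateral cortex (SD, n = 4) and 2784 ± 435 in sham cortex (SD, n = 3). The c subunit is present in many copies per pump, and the share of Atp6v0c counts that came from its near-identical copies was not tested. After it came Atp6v1e1 with 676 ± 228 CPM per kb in ipsilateral cortex, 894 ± 217 in contralateral cortex and 814 ± 203 in sham cortex, Atp6ap1 with 699.9 ± 90.2, 770.4 ± 93.3 and 752 ± 106 in the same groups, and Atp6v1b2 with 649.5 ± 67.7, 671 ± 90.0 and 762 ± 130.5. These 3 did not differ beyond the spread over libraries. Atp6v1a had 552 ± 97.0 CPM per kb in ipsilateral, 564 ± 49.0 in contralateral and 572 ± 83.6 in sham cortex, Atp6v1d 513 ± 76.7, 666 ± 89.1 and 564 ± 48.7, and Atp6v0d1 511 ± 130, 455 ± 56.5 and 474 ± 68.6. In ipsilateral and in sham cortex these 3 lay within the spread over libraries, while in contralateral cortex every Atp6v1d value was above every Atp6v0d1 value. Atp6v0a1 followed at 353 ± 29.8 in ipsilateral, 440.5 ± 56.9 in contralateral and 399.9 ± 60.1 in sham cortex, and Atp6v1h at 326 ± 133, 384 ± 23.6 and 360.3 ± 40.4. Atp6v1c1 was the lowest in the mean of each group, at 255 ± 73.1, 273 ± 22.7 and 303 ± 10.7 CPM per kb, and ranked 9 or 10 in every library.

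**Figure D4:**
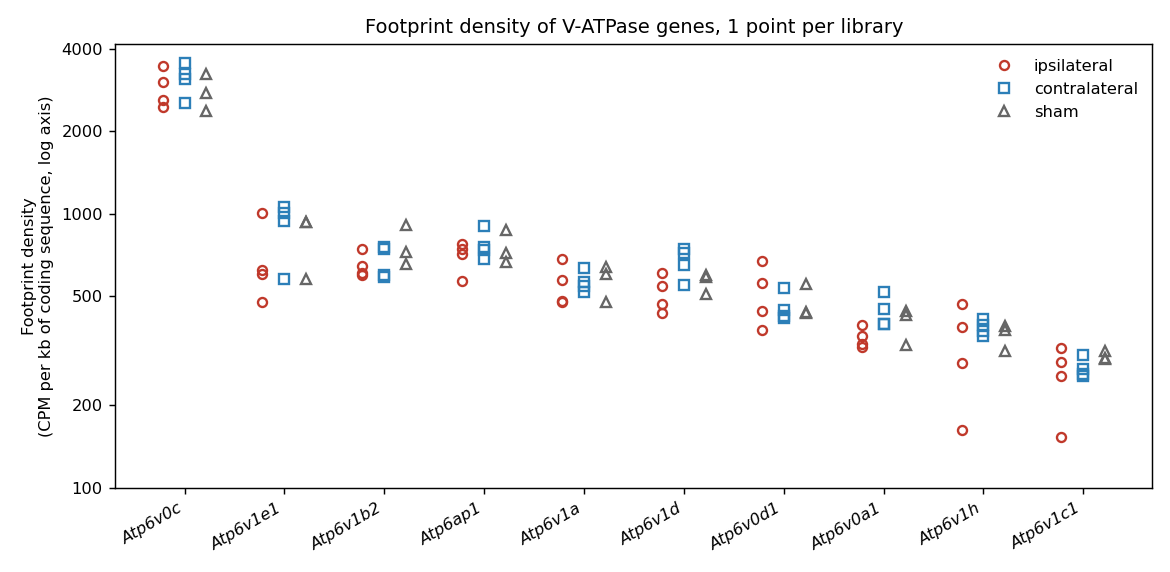
Footprint density of each V-ATPase gene in CPM per kb of coding sequence (log axis), 1 point per library, with ipsilateral, contralateral and sham libraries from left to right for each gene. Atp6v0c stands above the other 9 genes in every library, from 2364 to 3553 CPM per kb, and Atp6v1c1 has the lowest mean in each group.

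Among the 4277 protein-coding genes of the table with a coding length, the 10 genes ranked high, from the 83.1 percentile for Atp6v1c1 to the 99.3 percentile for Atp6v0c in the ipsilateral mean density. Subunits that sit in the pump in several copies, A, B, E and c, were among the first 6 of the 10 genes in the mean of each group, the other 2 of the 6 being Atp6ap1 and Atp6v1d. Outside the 10, the small V0 subunit Atp6v0e2 had a higher mean than A, B2 and E1 in each group. It had 1139 ± 298 CPM per kb in ipsilateral, 1172 ± 232 in contralateral and 906 ± 369 in sham cortex. Atp6ap2 and Atp6v1g2 were above A in each group, and Atp6v0b and Atp6v1f below it. Whether density follows copy number was not tested. The membrane sector, as the summed density of a1, c and d1, stood to the V1 sector, as the summed density of A, B2, C1, D, E1 and H, in a ratio of 1.28 ± 0.288 in ipsilateral libraries (SD, n = 4), 1.18 ± 0.236 in contralateral libraries (SD, n = 4) and 1.09 ± 0.166 in sham libraries (SD, n = 3). The highest ratio, 1.71, was in ipsilateral replicate 4, and the ranges of the groups overlapped. The ratio of c to a1 density ran from 6.22 to 10.6 in ipsilateral libraries, from 4.90 to 8.94 in contralateral libraries and from 6.46 to 7.31 in sham libraries. The order depended on the length used: per kb of the whole transcript Atp6v0c stayed first in sham cortex, while Atp6v1d, whose untranslated 3′ end is the longest of the 10 at 2747 bases, moved from rank 6 to rank 10.

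Coding length was used because transcripts that differ outside the coding sequence had equal counts. Atp6v1a-201 and Atp6v1a-202, with 3896 and 4234 bases but the same coding sequence, had identical counts in all 11 libraries, and so did Atp6v0c-201 and Atp6v0c-202 with 1183 and 796 bases. Shorter annotated transcripts of Atp6v1a that hold part of the coding sequence had counts close to their part of it: 38.4% of the coding bases went with 36.6% of the counts, 31.8% with 31.7%, and the shortest, 12.5%, with 7.88%. Atp6v1b2 overlaps Slc18a1 on the opposite strand, but none of its exon bases lie in an exon of that gene, and the same held for the miRNA genes inside Atp6v0a1 and Atp6v1e1.

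Of 16 further subunits and isoforms, 5 had a row in the table. Of these, 0 of 5 passed an adjusted p of 0.05 in any comparison. Of all tested genes 0.104% did in ipsilateral against sham, 0.365% in ipsilateral against contralateral and 0% in contralateral against sham cortex. The 11 others on the list were not analysed here. In ipsilateral against sham cortex the log2 change was -0.15 (SE 0.30) for Atp6v0b, the second proteolipid of the V0 ring, 0.32 (SE 0.26) for Atp6v0e2, a small V0 subunit, -0.0037 (SE 0.35) for Atp6v1f, the F subunit of the central shaft, -0.30 (SE 0.27) for Atp6v1g2, the neuronal partner of the E subunit in the peripheral stalk, and 0.05 (SE 0.17) for Atp6ap2, the prorenin receptor. Against contralateral cortex the values were -0.19, 0.03, 0.21, 0.0082 and -0.14 in the same order. Atp6ap2 had 878 ± 109 CPM in ipsilateral cortex (SD, n = 4), 954 ± 122 in contralateral cortex (SD, n = 4) and 816 ± 135 in sham cortex (SD, n = 3). Per kb of coding sequence the highest of the 5 was Atp6v0e2 in ipsilateral cortex, at 1139 ± 298, and in contralateral cortex, at 1172 ± 232, and Atp6v1g2 in sham cortex, at 947 ± 308 CPM per kb. Atp6v0b shares 70 exon bases with the antisense gene Gm12841, and since the use of strand in counting is not given, reads of the 2 cannot be told apart.

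The promoters were searched because lysosomal genes, V-ATPase genes among them, are known to share E-box elements bound by TFEB and its relatives. Windows from 250 bases before to 50 bases after the start were held for 7 of the 10 genes (RefSeq, GRCm38.p6). The palindrome CACGTG occurred in 2 of the 7, Atp6v1a and Atp6v0d1, and in at least 1 window of 8.09% of 27025 genes. The longer form TCACGTGA, which contains it, occurred in the same number, 2 of 7, and in 1.12% of all genes. The Atp6v1a match begins 131 bases before the start, at chr16:44139365-44139410 on the minus strand with its flanks, shown with CACGTG in capitals.
Atp6v1a promoter: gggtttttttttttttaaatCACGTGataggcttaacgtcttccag
Both genes with the element, Atp6v1a and Atp6v0d1, had log2 changes of -0.06 and 0.06 in ipsilateral against sham cortex.

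Genes that work with the pump were read from lists of its partners, and no partner gene passed the test in ipsilateral against sham or in ipsilateral against contralateral cortex. Of the 5 tested assembly and regulation genes, 2 were above 0 and 3 below 0 against sham, with a median log2 change of -0.11, and the largest changes were -0.62 (SE 0.38) for Rogdi and -0.49 (SE 0.21) for Dmxl2, both linked to the rabconnectin-3 machinery known to promote assembly of V1 on V0. Of the 4 transporters that use the proton gradient to fill vesicles, 1 was above 0 and 3 below 0 against sham. Slc32a1, the vesicular GABA transporter, had a log2 change of 0.46 (SE 0.27) against sham and 0.84 (SE 0.24, edgeR adjusted p = 0.174) against contralateral cortex. It shares 697 exon bases with the antisense gene Gm14205, so without the use of strand reads of both cannot be told apart. Slc17a6, a vesicular glutamate transporter, had -0.44 (SE 0.55) against sham and had 0 counts in ipsilateral replicate 4. Among 13 synaptic vesicle membrane proteins 4 were above 0 and 9 below 0 against sham, with a median of -0.18, and the largest changes were -0.51 (SE 0.31) for Synpr and -0.45 (SE 0.21) for Syn2.

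The lysosomal membrane proteins and hydrolases, which work in the compartment the pump acidifies, lay on the other side of 0. Of 22 tested, 21 had a log2 change above 0 in ipsilateral against sham cortex, where 49.9% of all tested genes did, with a median of 0.16, and 15 of 22 against contralateral cortex, where 51.4% did, with a median of 0.13. Asah1, the acid ceramidase, had a log2 change of 0.85 (SE 0.34, edgeR adjusted p = 0.470) against sham and did not pass the test. Of 8 endolysosomal ion transporters 4 were above and 4 below 0 against sham, with 0.48 (SE 0.40) for the chloride-proton exchanger Clcn7 and -0.48 (SE 0.39) for its partner Ostm1. Genes annotated at the same place share 166 exon bases with Ostm1, 155 with Rogdi, 90 with Syn2 and 84 with Rptor. Of 5 genes of nutrient sensing at the lysosome 1 was above and 4 were below 0, with -0.73 (SE 0.35) for Rptor and -0.57 (SE 0.44) for Fnip1. Of 14 subunits of the mitochondrial ATP synthase, the related rotary enzyme, 4 were above and 10 below 0, with a median of -0.09, and the largest changes were -0.62 (SE 0.30) for Atp5g1 and -0.36 (SE 0.23) for Atp5d.

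**Figure D5:**
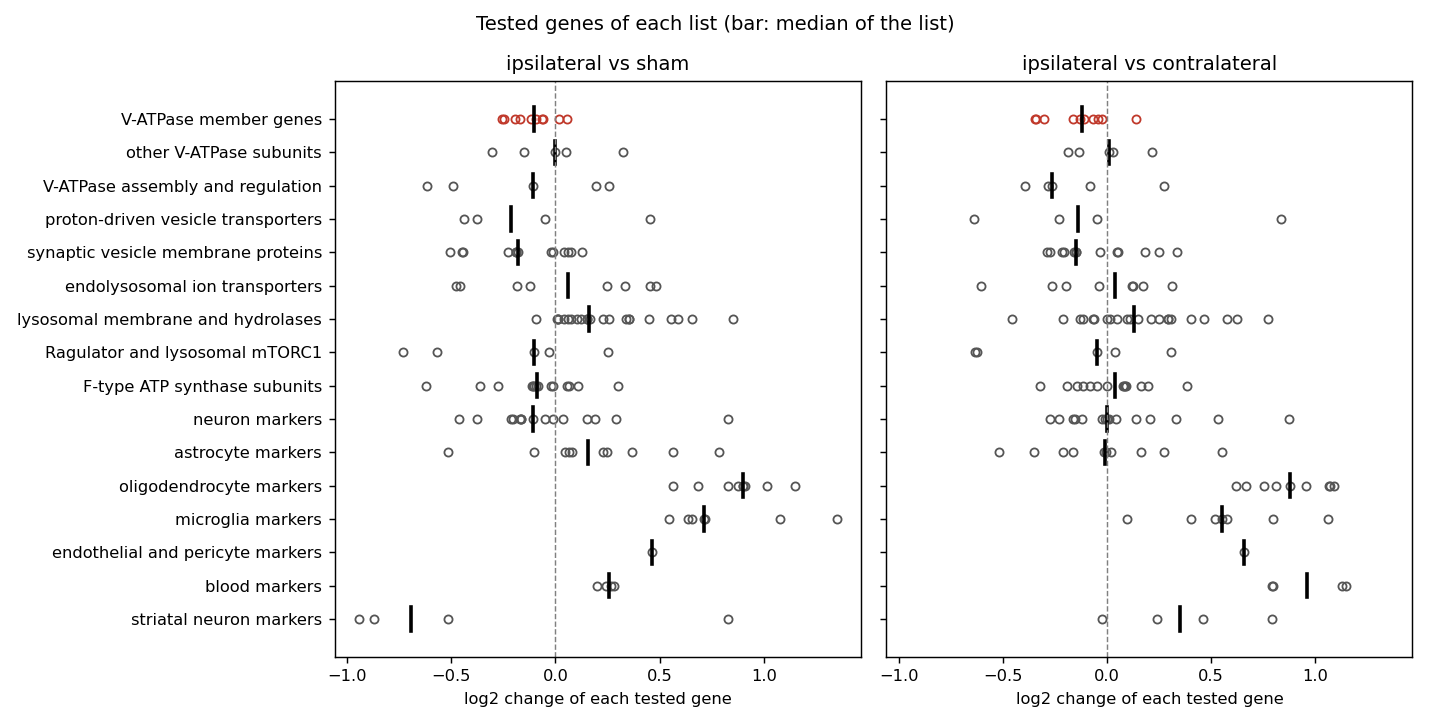
Log2 change of each tested gene (circles) and the median (bar) of each gene list, in ipsilateral against sham cortex on the left and ipsilateral against contralateral cortex on the right. The V-ATPase genes sit close together between -0.35 and 0.14, the lysosomal list lies mostly above 0, and the oligodendrocyte list lies between 0.56 and 1.15 against sham.

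Markers of some cell types differed between the groups of libraries. All 15 neuron markers were in the table. They summed to 18755 to 22020 CPM in ipsilateral, 19812 to 23384 in contralateral and 20142 to 22678 in sham libraries. In each comparison 0 of 15 passed the adjusted threshold. Of all tested genes, 0.104% passed in ipsilateral against sham, 0.365% in ipsilateral against contralateral and 0% in contralateral against sham cortex. In ipsilateral against sham cortex 10 of 15 were below 0, where 50.1% of all tested genes were. In ipsilateral against contralateral cortex 7 of 15 were below 0, where 48.6% of all tested genes were. Oligodendrocyte markers, 9 of 12 in the table, summed to 4008 to 9513 CPM in ipsilateral libraries. Their sums were 3309 to 4382 CPM in contralateral and 3277 to 3927 CPM in sham libraries. All 9 had a log2 change above 0 in ipsilateral against contralateral cortex, where 51.4% of all tested genes did. Of these, 4 of 9 passed the adjusted threshold, where 0.365% of all tested genes did. Members that rose included Mbp, Mag and Cldn11, by log2 changes of 1.09, 1.06 and 1.07. Against sham all 9 were also above 0, where 49.9% of all tested genes were. There 0 of 9 passed the adjusted threshold, where 0.104% of all tested genes did. Microglia markers, 8 of 11 in the table, summed to 1398 to 1910 CPM in ipsilateral, 1101 to 1239 in contralateral and 880 to 1054 in sham libraries, and 0 of the 7 tested passed the adjusted threshold, where 0.104% of all tested genes did against sham. All 7 had a log2 change above 0 against sham, with a median of 0.71, and 5 of 7 had an unadjusted p under 0.05, where 7.74% of all tested genes did. Blood markers, 4 of 8 in the table, summed to 1041 to 2024 CPM in ipsilateral libraries. Their sums were 566 to 989 CPM in contralateral and 895 to 1324 CPM in sham libraries. Blood markers include near-identical gene copies, so these sums may hold some reads more than once. Reads of the copies Hba-a1 and Hba-a2 may be split between them or counted for both, which was not tested, so their values are not independent. Hba-a1 and Hba-a2 were higher in ipsilateral than in contralateral cortex, by 1.13 and 1.14 on the log2 scale. Both passed the adjusted threshold there, where 0.365% of all tested genes did. Against sham their log2 changes were 0.24 and 0.20 (edgeR adjusted p = 0.886 and 0.921). In contralateral against sham cortex all 4 blood markers were below 0, with a median of -0.71, where 50.7% of all tested genes were below 0. Astrocyte markers, all 10 in the table, summed to 9969 to 11147, 9633 to 13988 and 8576 to 10987 CPM in the same groups, and striatal neuron markers, 4 of 9 in the table, to 235 to 740, 245 to 761 and 567 to 942 CPM. Of 10 endothelial and pericyte markers 1 was in the table. The part of cell composition in the V-ATPase values was not tested.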

How the data were processed

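The authors deposited footprint counts, as whole numbers for each Ensembl transcript, with 1 column per library and a summed count of at least 101 per transcript. Per the labels' protocols, monosomes were purified after nuclease digestion, ribosomes were captured through P0, and fragments of 30 to 50 nt were selected. Inserts are given as 15 to 35 bp, and 69 bp single-end reads were taken. The submitters' processing notes name Bowtie2, edgeR and mm10. Versions, the counting tool and the use of strand were not given in the sources used here.

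Of 9784 transcripts, 9736 matched GENCODE vM21, and the 48 others, with 0.306% of counts, stayed out of totals and tests. Each of 4338 genes was represented by the transcript with the highest summed count, ties going to the lowest identifier, because isoforms repeat the same reads. Genes were filtered with filterByExpr (minimum count 10), which left 3835, scaled with TMM factors (0.968 to 1.03) and tested with edgeR 4.0.16 (robust quasi-likelihood fit on all 11 libraries, group as the only term, threshold 0.05 after Benjamini-Hochberg adjustment) in R 4.3.3. CPM values were computed here from the deposited counts with the TMM factors. Standard errors were derived from the fold change and the F statistic. The fit was tested on simulated data. Alternatives used limma 3.58.1, DESeq2 1.42.0, other scalings, no filter, a replicate block, other sample sets and each library left out.

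The 10 genes and the gene lists were chosen with earlier results of these data known. Named were all 10 genes, every other tested subunit and, of each further list, the genes past the threshold and otherwise the 2 with the largest absolute change in ipsilateral against sham cortex. For the lists of cell type markers, only genes past the threshold are named, and the rest are given as counts and sums. Some genes that this rule names are not reported here.

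Per the series' design text, replicates come from distinct days of surgery, so equal numbers mark a shared day. Whether they mark the same animal is not stated. Deviations from the group means, correlated across genes, which are not independent replicates, gave a median r of 0.131 (-0.139 to 0.224) in 7 same-number pairs and -0.0300 (-0.255 to 0.259) in 33 other pairs. Over all pairs of libraries, within and between groups, the least different pair had a chi-square per degree of freedom of 1.19. All were therefore kept as separate samples.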

Additional observations from a re-analysis of the deposited data

How the results depend on the processing

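Under every alternative listed for each comparison (16 against sham, 17 for ipsilateral against contralateral cortex and 16 for contralateral against sham), 0 of the 10 V-ATPase genes passed the threshold. With the day of surgery as a replicate block, 0 of 10 passed in each comparison, the Atp6v0a1 log2 change was -0.21 in ipsilateral against contralateral cortex and -0.07 against sham, those of Atp6v1e1 and Atp6v1d were -0.39 and -0.35 in ipsilateral against contralateral cortex, and no call among the 10 genes changed. The median log2 change of the 10 genes stayed below 0 in ipsilateral cortex under the alternative scalings, at -0.10 (size factors) and -0.14 (library totals) against sham and -0.12 and -0.14 against contralateral cortex. It was lowest without ipsilateral replicate 2, at -0.19 and -0.17. The signs of small changes were not stable: that of Atp6v0c against sham differed in 7 of 16 alternatives and that of Atp6v1a against contralateral cortex in 4 of 17, the cause not being tested. Leaving out 1 library at a time, the genes called over the whole table numbered 0 to 22 in ipsilateral against sham (main test 4, block 3), 4 to 26 in ipsilateral against contralateral (main test 14, block 11) and 0 to 3 in contralateral against sham cortex (main test 0, block 0). DESeq2 called 6, 11 and 2. The counts against sham were 0 without sham replicate 1, 2 without sham replicate 5 and 22 without ipsilateral replicate 5. Those against contralateral cortex were 26 without ipsilateral replicate 5, 6 without ipsilateral replicate 2, 9 without replicate 4 of either side, and 5 and 4 without contralateral replicates 1 and 6. The 3 calls in contralateral against sham cortex came without sham replicate 5. Library depth limits the values: in ipsilateral replicate 4 a count of 0 still allows 88.0 CPM. The p-values of the main test rest on the spread between libraries within groups of 3 or 4, which come from different surgery days. Whether ipsilateral and contralateral libraries of equal number come from the same animal is not stated, and the main test does not pair them.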
